A study of Mus musculus with 5 samples.

Results

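The 10 genes described here belong to the mouse CXC chemokine system, bear on neutrophil traffic and were chosen by a list of symbols. All 10 were found among the 21590 genes of every one of the authors' 4 deposited comparison tables, with Cxcl15 listed under its older symbol Il8 and matched by its Entrez identifier 20309. The ligands are Cxcl1 (Entrez 14825), Cxcl2 (20310), Cxcl3 (330122), Cxcl5 (20311), Cxcl15, Ppbp (57349), Pf4 (56744) and Cxcl12 (20315). The receptors are Cxcr2 (12765) and Cxcr4 (12767).

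RNA was sequenced from whole lungs of mice on a mixed 129S6, C57BL/6 and BALB/c background. The 5 groups were KO_VILIhigh, KO_VILIlow, WT_VILI, KO_noVILI and WT_noVILI, where KO stands for knockout of Cldn4, a claudin of epithelial tight junctions, and VILI for ventilator-induced lung injury. The 3 VILI groups were ventilated for 2 h at 40 cmH2O, and the other 2 groups were not ventilated. KO_VILIlow lungs were those labelled as injured about as much as ventilated wild type lungs, and KO_VILIhigh lungs those labelled as injured more. The labels give both ventilated knockout groups the same ventilation, so they differ by the recorded injury level and not by treatment. The labels give neither age nor sex, nor the construct of the knockout. The design text states duplicates, so each group holds 2 libraries, while the labels hold 1 record per group and the tables hold 0 columns of values per library. Whether the 2 groups of a comparison overlap library by library is therefore not known for any gene.

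CXC chemokines are small secreted proteins that bind G protein-coupled receptors and guide leukocytes along gradients held on cell-surface glycosaminoglycans. The ligands that carry the glutamate-leucine-arginine motif act mainly on Cxcr2 and draw neutrophils out of blood. In lung some of them are made by epithelium, endothelium and macrophages under NF-kB control. Cxcl12 acts on Cxcr4 and holds neutrophils in bone marrow and other cells near stroma, so the pair is commonly set against the Cxcr2 ligands.

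The 2 value columns for fold change and mean abundance in each of the authors' deposited tables together fix 2 whole numbers per gene, the summed normalised counts of the 2 libraries of each group. Both came within 0.05 of a whole number for 100 percent of the genes in every table. These group totals are given below with CPM, the count scaled to a standard library size. Their intervals (exact formulas, 95 percent) treat the normalised totals as if they were read counts. They therefore only approximate counting error and cover no spread between libraries. Over all genes they summed to 16751218 in KO_noVILI and 16766870 in WT_noVILI, 12740107 in WT_VILI and 12733030 in WT_noVILI, 11812354 in KO_VILIlow and 11822407 in WT_VILI, and 10313645 in KO_VILIhigh and 10319442 in WT_VILI. Cldn4 had group totals of 2 in KO_noVILI against 150 in WT_noVILI, 0 in KO_VILIlow against 1655 in WT_VILI and 1 in KO_VILIhigh against 1432 in WT_VILI, recovered from the authors' deposited tables. Sex markers moved with ventilation. Ddx3y, a gene of the Y chromosome, had a total of 1464 in WT_VILI and 1 in WT_noVILI, and Xist, a transcript of the inactive X chromosome, had 78 in WT_VILI and 11349 in WT_noVILI. Xist also differed between the unventilated groups, with 8482 in KO_noVILI and 14967 in WT_noVILI. Both unventilated groups had Ddx3y totals of at most 2, and the 3 ventilated groups had Xist totals of at most 78. Ventilation and sex cannot be told apart in any comparison of a ventilated with an unventilated group. In whole lung, more cells of a type and more RNA per cell cannot be told apart either.

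The ligand genes Cxcl5, Ppbp, Pf4, Cxcl3, Cxcl15, Cxcl1 and Cxcl2 follow each other on chromosome 5 in the RefSeq gene order, while Cxcl12 lies on chromosome 6 and both receptor genes on chromosome 1. The promoters of Cxcl1, Cxcl2 and Cxcl3 are shown because they are the members whose windows hold a kappa B motif, the DNA sequence that NF-kB proteins bind. Each line gives the 250 bases before the RefSeq start site on the plus strand of GRCm38.p6, with the matched 11 bases in capitals. The windows are chr5:90890995-90891244 for Cxcl1, chr5:90903649-90903898 for Cxcl2 and chr5:90785851-90786100 for Cxcl3.
Cxcl1: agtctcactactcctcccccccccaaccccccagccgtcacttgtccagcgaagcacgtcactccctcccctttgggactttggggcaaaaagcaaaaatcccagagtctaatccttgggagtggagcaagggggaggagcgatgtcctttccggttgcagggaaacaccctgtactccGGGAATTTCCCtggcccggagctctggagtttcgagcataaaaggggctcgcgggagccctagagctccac
Cxcl2: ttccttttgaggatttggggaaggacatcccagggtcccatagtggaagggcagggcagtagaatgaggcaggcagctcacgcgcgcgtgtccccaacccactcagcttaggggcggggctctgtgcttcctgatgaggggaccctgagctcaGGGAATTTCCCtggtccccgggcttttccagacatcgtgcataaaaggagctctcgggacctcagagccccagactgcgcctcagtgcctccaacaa
Cxcl3: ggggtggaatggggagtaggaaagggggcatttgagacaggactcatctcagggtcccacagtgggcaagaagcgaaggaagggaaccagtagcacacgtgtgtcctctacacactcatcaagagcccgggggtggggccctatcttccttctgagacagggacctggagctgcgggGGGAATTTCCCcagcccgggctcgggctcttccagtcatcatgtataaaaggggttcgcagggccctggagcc
The capitals read GGGAATTTCCC in all 3, and they hold 2 overlapping matches to the kappa B consensus, 1 on each strand. They lie 71 to 61 bases before the start of Cxcl1, 97 to 87 bases before that of Cxcl2 and 73 to 63 bases before that of Cxcl3. Of the 10 members, 9 had a promoter in the RefSeq table, and the kappa B motif was in these 3 of the 9. It was in 3.90 percent of all 32851 promoters of the same length, and counted by gene in 4.46 percent of 27025 genes. The 3 matches are the same 11 bases in genes of the same run, so they may not be independent of each other. The AP-1 motif TGANTCA, searched on both strands, was in the promoter of Ppbp. It was in 6.75 percent of all promoters and 7.82 percent of genes. A match describes the letters and does not show that a factor binds there.

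In unventilated lungs, 3 of the 10 genes were called higher in KO_noVILI than in WT_noVILI, at an adjusted p under 0.05 in the authors' edgeR test, against 1.45 percent of all genes called higher there. These were Cxcl1, Cxcl2 and Ppbp. None was called lower, against 1.92 percent of all genes, and 3.36 percent of all genes were called either way. Cxcl1, Cxcl2 and Ppbp stood below 5 CPM in both groups. The median log2 fold change of the 10 was 1.05, against 0 for all genes of the authors' deposited table.

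In ventilated wild type lungs, 7 of the 10 were called in WT_VILI against WT_noVILI, against 9.09 percent of all genes. Cxcl1, Cxcl2, Cxcl15, Ppbp and Cxcr2 were higher, against 4.85 percent of all genes, and Cxcl12 and Cxcr4 were lower, against 4.23 percent. The median log2 fold change of the 10 was 1.27 in the authors' deposited table, against 0 for all genes.

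Among ventilated lungs, 4 genes were called higher in KO_VILIlow than in WT_VILI, against 0.676 percent of all genes, and 4 were called higher in KO_VILIhigh than in WT_VILI, against 1.13 percent. Cxcl1, Cxcl2 and Ppbp were in both sets, with Cxcl5 the fourth in KO_VILIlow and Cxcl3 the fourth in KO_VILIhigh. No member was called lower in either comparison, where 0.296 percent of all genes were called lower for KO_VILIlow and 0.435 percent for KO_VILIhigh. Called either way were 0.973 percent of all genes for KO_VILIlow and 1.56 percent for KO_VILIhigh. Both comparisons share the WT_VILI libraries, and the median log2 fold change of the 10 was 0.89 for KO_VILIlow and 1.35 for KO_VILIhigh in the authors' deposited tables, against 0 for all genes in each.

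**Figure D1:**
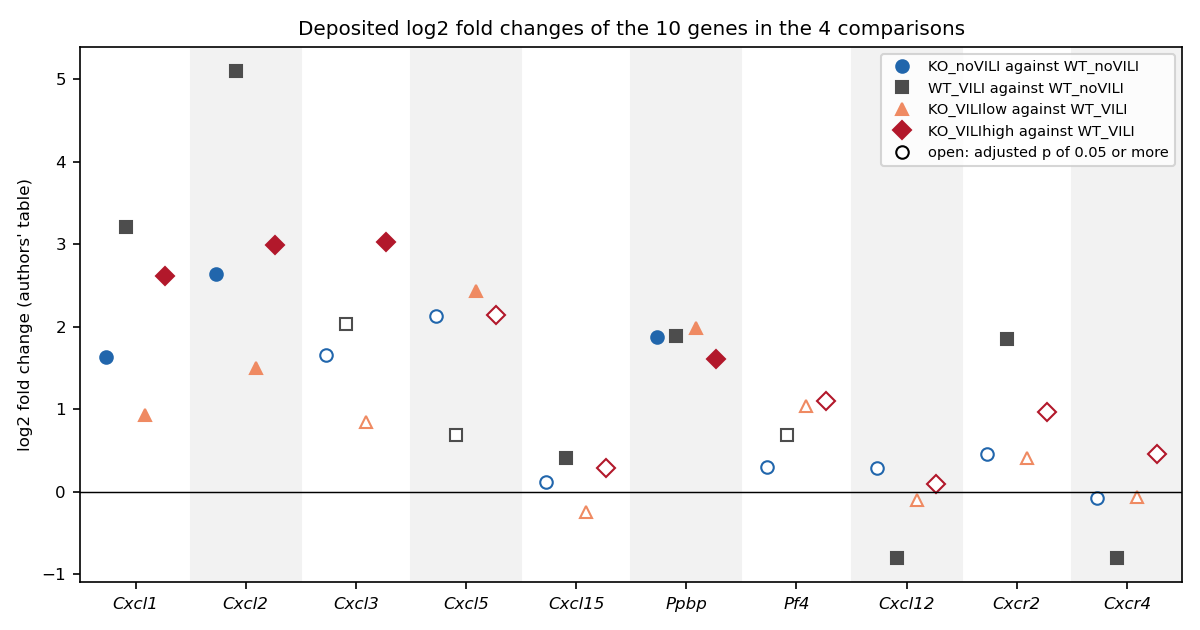
Log2 fold change (vertical axis) of each of the 10 genes (horizontal axis) in the 4 comparisons of the authors' deposited tables, 1 symbol per comparison, filled at an adjusted p under 0.05 and open otherwise. Cxcl1, Cxcl2 and Ppbp are filled and above 0 in every comparison, and Cxcl12 and Cxcr4 are filled and below 0 in WT_VILI against WT_noVILI.

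Cxcl1, also known as KC, is a main neutrophil attractant of mouse tissues and a ligand of Cxcr2. It was called higher in all 4 deposited comparisons. Its group total was 78 in KO_noVILI (4.64 CPM) and 25 in WT_noVILI (1.49 CPM), a log2 fold change of 1.63 in the authors' deposited table (adjusted p = 0.0213, edgeR). The total was 187 in WT_VILI (14.6 CPM) and 20 in WT_noVILI (1.57 CPM), with a log2 fold change of 3.21 in the authors' deposited table (adjusted p = 1.40e-14, edgeR). KO_VILIlow had 296 (25.0 CPM) against 156 in WT_VILI (13.2 CPM), and the authors' deposited table gave a log2 fold change of 0.92 (adjusted p = 0.0340, edgeR). That difference, 1.90 times by totals (1.56 to 2.32), was the smallest of the 4. KO_VILIhigh had 840 (81.2 CPM) against 137 in WT_VILI (13.2 CPM), with a log2 fold change of 2.61 in the authors' deposited table (adjusted p = 1.58e-13, edgeR).

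Cxcl2, known as MIP-2, acts on the same receptor and is made rapidly by activated macrophages and neutrophils. It was called higher in all 4 comparisons too, and it started from almost no signal. WT_noVILI had a group total of 3 in both tables that hold it. In KO_noVILI the total was 20, which is 6.67 times that in WT_noVILI with an interval of 1.98 to 35.0, and the authors' deposited table gave a log2 fold change of 2.64 (adjusted p = 0.0374, edgeR). In WT_VILI the total was 111, or 37.0 times the WT_noVILI total with an interval of 12.3 to 182, and the authors' deposited table gave a log2 fold change of 5.10 (adjusted p = 2.76e-18, edgeR). By these approximate counting intervals the size of both folds is uncertain, and neither interval crosses 1. KO_VILIlow had 255 (21.5 CPM) against 90 in WT_VILI (7.60 CPM), a log2 fold change of 1.50 in the authors' deposited table (adjusted p = 0.00980, edgeR). KO_VILIhigh had 638 (61.7 CPM) against 80 in WT_VILI (7.74 CPM), a log2 fold change of 2.99 in the authors' deposited table (adjusted p = 5.38e-18, edgeR).

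The ratio of Cxcl2 to Cxcl1 totals was compared within each group, a ratio chosen after the values were seen. It was 0.256 (0.149 to 0.423) in KO_noVILI and 0.120 (0.0232 to 0.393) in WT_noVILI. It was 0.594 (0.465 to 0.755) in WT_VILI and 0.150 (0.0285 to 0.506) in WT_noVILI. It was 0.861 (0.726 to 1.02) in KO_VILIlow and 0.577 (0.440 to 0.753) in WT_VILI, and 0.760 (0.684 to 0.843) in KO_VILIhigh and 0.584 (0.438 to 0.775) in WT_VILI. In each of the 4 pairs the ratio was higher in the knockout or ventilated group, and the 2 intervals overlapped.

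Cxcl3, another Cxcr2 ligand of the same gene run, was called in 1 comparison. KO_VILIhigh had a group total of 75 (7.25 CPM) against 9 in WT_VILI (0.870 CPM), 8.33 times higher with an interval of 4.16 to 18.9, and a log2 fold change of 3.02 in the authors' deposited table (adjusted p = 2.25e-05, edgeR). In the other groups it was near the limit of detection, with totals of 20 in KO_VILIlow against 11 in WT_VILI, 13 in WT_VILI against 3 in WT_noVILI, and 10 in KO_noVILI against 3 in WT_noVILI. The authors' deposited tables gave log2 fold changes of 0.85 for KO_VILIlow, 2.03 for WT_VILI and 1.66 for KO_noVILI, with adjusted p-values of 1.00, 0.377 and 0.613 in that order (edgeR).

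Cxcl5, known as LIX and in mouse lung made chiefly by epithelium, had group totals of at most 28. KO_VILIlow had 28 (2.36 CPM) against 5 in WT_VILI (0.422 CPM), 5.60 times higher with an interval of 2.13 to 18.6, and it was called, with a log2 fold change of 2.43 in the authors' deposited table (adjusted p = 0.0346, edgeR). KO_VILIhigh had 23 against 5 in WT_VILI, and the authors' deposited table gave a log2 fold change of 2.15 that was not called (adjusted p = 0.219, edgeR). The totals of both knockout groups lay within each other's counting intervals. KO_noVILI had 14 against 3 in WT_noVILI, and WT_VILI had 5 against 3 in WT_noVILI, with log2 fold changes of 2.13 and 0.69 in the authors' deposited tables (adjusted p = 0.255 and 1.00, edgeR).

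Cxcl15, called lungkine, is made constitutively by lung epithelium in the mouse and was by far the most abundant member. It was called in 1 comparison: WT_VILI had a group total of 14250 (1116 CPM) against 10773 in WT_noVILI (844 CPM), a log2 fold change of 0.40 in the authors' deposited table (adjusted p = 0.0305, edgeR). The other log2 fold changes in the authors' deposited tables were 0.12 for KO_noVILI, -0.25 for KO_VILIlow and 0.28 for KO_VILIhigh, with adjusted p-values of 1.00, 1.00 and 0.912 in that order (edgeR). Its level stayed between 844 and 1420 CPM in all groups, while Cxcl1 spanned 1.49 to 81.2 CPM. Of the 10 markers of alveolar type 2 cells, 1 was called higher and 0 lower in WT_VILI against WT_noVILI, with a median log2 fold change of 0.21. Sftpc among them had a group total of 135568 in both groups, a form that normalisation to equal distributions can give. The part of epithelial content in the Cxcl15 difference was not tested.

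**Figure D2:**
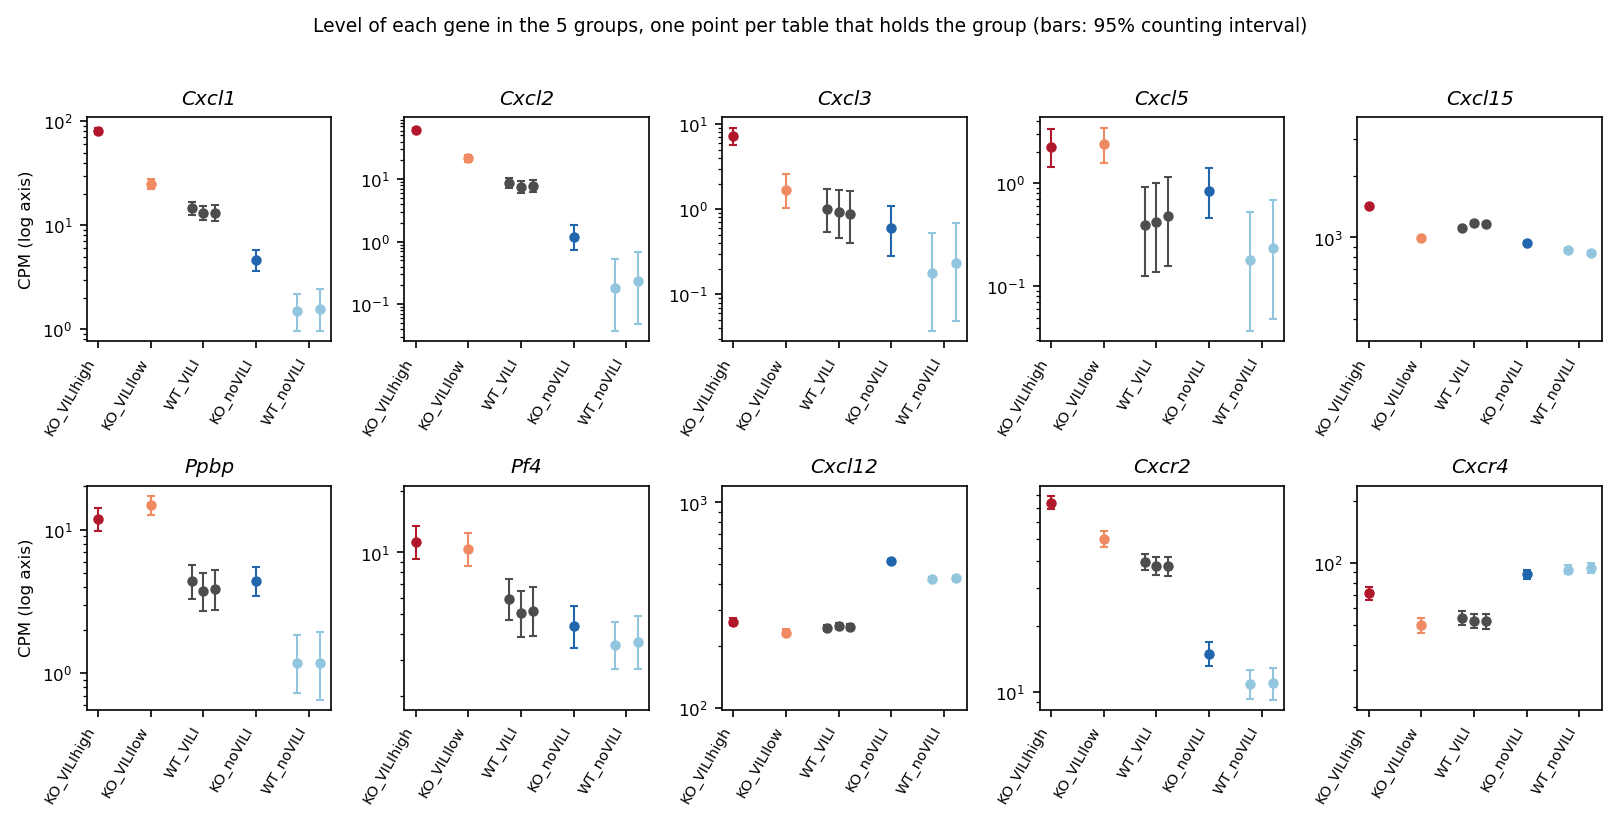
Recovered level of each gene in CPM on a log axis, by group (horizontal axis), with 1 point per table that holds the group. Bars are approximate 95 percent counting intervals of the normalised totals. Cxcl15 stays between 844 and 1420 CPM, while Cxcl1 and Cxcl2 reach 81.2 and 61.7 CPM in KO_VILIhigh.

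Ppbp encodes the precursor of the platelet chemokine NAP-2, which acts on Cxcr2 once cleaved. It was called higher in all 4 comparisons, with folds of like size. Its group total was 74 in KO_noVILI (4.40 CPM) and 20 in WT_noVILI (1.19 CPM), a log2 fold change of 1.87 in the authors' deposited table (adjusted p = 0.000273, edgeR). It was 56 in WT_VILI (4.39 CPM) and 15 in WT_noVILI (1.17 CPM), a log2 fold change of 1.88 in the authors' deposited table (adjusted p = 0.000737, edgeR). KO_noVILI and WT_VILI thus stood at nearly the same CPM, each against WT_noVILI. The total was 175 in KO_VILIlow (14.8 CPM) and 44 in WT_VILI (3.71 CPM), a log2 fold change of 1.99 in the authors' deposited table (adjusted p = 1.29e-07, edgeR). It was 122 in KO_VILIhigh (11.8 CPM) and 40 in WT_VILI (3.87 CPM), a log2 fold change of 1.60 in the authors' deposited table (adjusted p = 0.00135, edgeR). Unlike for Cxcl1 and Cxcl2, the level in KO_VILIhigh was not above that in KO_VILIlow, although the tables were normalised separately.

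Pf4, platelet factor 4, is stored in the same platelet granules and binds heparin-like chains, with little action on Cxcr2. It was called in no comparison in the authors' edgeR test, although 2 of its 4 unadjusted p-values were under 0.05. Its group totals were 74 in KO_noVILI against 60 in WT_noVILI, 76 in WT_VILI against 47 in WT_noVILI, 123 in KO_VILIlow against 60 in WT_VILI, and 116 in KO_VILIhigh against 54 in WT_VILI. The log2 fold changes in the authors' deposited tables were 0.30, 0.69, 1.03 and 1.10 in that order, with adjusted p-values of 1.00, 0.344, 0.199 and 0.120 (edgeR). The ratio of Ppbp to Pf4 totals, also chosen after the values were seen, was 1.00 (0.715 to 1.40) in KO_noVILI and 0.333 (0.190 to 0.561) in WT_noVILI. It was 0.737 (0.512 to 1.05) in WT_VILI and 0.319 (0.166 to 0.581) in WT_noVILI. It was 1.42 (1.12 to 1.81) in KO_VILIlow and 0.733 (0.485 to 1.10) in WT_VILI, and 1.05 (0.809 to 1.37) in KO_VILIhigh and 0.741 (0.480 to 1.14) in WT_VILI. The intervals were apart in the unventilated and the low-injury pair and overlapped in the other 2 pairs.

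Markers of platelets and megakaryocytes were read beside these 2 genes. Of 15, 0 were called in KO_noVILI against WT_noVILI by the authors' edgeR test, with 5 at an unadjusted p under 0.05. Called higher were 3 in WT_VILI against WT_noVILI, 3 in KO_VILIlow against WT_VILI and 2 in KO_VILIhigh against WT_VILI, and none lower. Their median log2 fold changes were 0.58, 0.73, 1.00 and 0.91 in that order of comparisons, smaller than those of Ppbp in each. Single markers ranged from -0.15 to 5.04, -0.41 to 3.70, -1.16 to 2.48 and -0.11 to 2.25. The highest marker thus lay above Ppbp in each comparison, with a group total of at most 29. Their summed level was 75.0 CPM in KO_noVILI and 61.4 CPM in WT_noVILI, 87.2 CPM in WT_VILI and 62.7 CPM in WT_noVILI, 132 CPM in KO_VILIlow and 79.0 CPM in WT_VILI, and 150 CPM in KO_VILIhigh and 80.3 CPM in WT_VILI. Itgb3 alone held 34.6 CPM of the sum in KO_noVILI and 34.6 CPM in WT_noVILI, and Gp6 was at 0 in WT_noVILI. For Itga2b, the platelet integrin, the authors' deposited tables gave log2 fold changes of 0.58, 0.68, 1.29 and 1.34, and for Itgb3, its partner, 0.00, 0.17, 0.46 and 0.77. For Gp1ba, a part of the von Willebrand factor receptor, they gave -0.15, 1.20, 0.52 and 0.62. The part of platelet content in the Ppbp differences was not tested.

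Cxcl12, made by stromal and endothelial cells, was lower in WT_VILI and was otherwise not called. WT_VILI had a group total of 3124 (245 CPM) against 5466 in WT_noVILI (428 CPM), 0.572 times the level, with a log2 fold change of -0.81 in the authors' deposited table (adjusted p = 1.10e-06, edgeR). KO_noVILI had 8711 (518 CPM) against 7127 in WT_noVILI (424 CPM), a log2 fold change of 0.29 in the authors' deposited table that was not called (adjusted p = 0.445, edgeR). The 3 ventilated groups lay close together. KO_VILIlow stood at 233 CPM against 251 CPM in WT_VILI, and KO_VILIhigh at 264 CPM against 248 CPM in WT_VILI, with log2 fold changes of -0.11 and 0.09 in the authors' deposited tables (adjusted p = 1.00 for both, edgeR). Of 12 endothelial markers, 4 were called lower in WT_VILI against WT_noVILI and 0 higher, with a median log2 fold change of -0.17. Cdh5 had a log2 fold change of 0.22 and Kdr of -0.57 in the authors' deposited table. Of 11 fibroblast and smooth muscle markers, 4 were called higher and 2 lower there, with a median of 0.05. The part of either cell type in the fall of Cxcl12 was not tested.

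Cxcr2, the neutrophil receptor for the Cxcl1, Cxcl2, Cxcl3, Cxcl5 and Ppbp products, rose in WT_VILI, with a group total of 504 (39.5 CPM) against 140 in WT_noVILI (11 CPM). The log2 fold change was 1.85 in the authors' deposited table (adjusted p = 2.66e-05, edgeR). In the other comparisons it was not called. KO_noVILI had 252 (15.0 CPM) against 183 in WT_noVILI (10.9 CPM), KO_VILIlow 595 (50.2 CPM) against 447 in WT_VILI (37.7 CPM), and KO_VILIhigh 762 (73.7 CPM) against 389 in WT_VILI (37.6 CPM). The log2 fold changes in the authors' deposited tables were 0.46, 0.41 and 0.97 in that order, with adjusted p-values of 0.373, 1.00 and 0.415 (edgeR). In ventilated wild type lungs the receptor was thus called together with Cxcl1 and Cxcl2, and in the knockout comparisons these ligands were called and the receptor was not. Whether receptor and ligands differ in their fold was not tested.

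Neutrophil markers were read beside Cxcr2, which is itself carried by these cells. Of 14 measured, 2 were called higher in KO_noVILI against WT_noVILI, 9 in WT_VILI against WT_noVILI, 2 in KO_VILIlow against WT_VILI and 4 in KO_VILIhigh against WT_VILI. Chil3, which alveolar macrophages also express, was the 1 gene called lower, in WT_VILI against WT_noVILI, and is among those called higher in KO_VILIlow and KO_VILIhigh. The median log2 fold changes were 0.35, 1.70, 0.45 and 1.09 in that order, close to those of Cxcr2. The summed level was 505 CPM in KO_noVILI and 421 CPM in WT_noVILI, 691 CPM in WT_VILI and 427 CPM in WT_noVILI, 1044 CPM in KO_VILIlow and 691 CPM in WT_VILI, and 1260 CPM in KO_VILIhigh and 688 CPM in WT_VILI. Chil3 makes up much of these sums. Without it, a choice made after the values were seen, the sum was 210 CPM in KO_noVILI and 180 CPM in WT_noVILI, 585 CPM in WT_VILI and 183 CPM in WT_noVILI, 774 CPM in KO_VILIlow and 586 CPM in WT_VILI, and 1009 CPM in KO_VILIhigh and 583 CPM in WT_VILI. The medians of the remaining 13 genes were 0.41, 1.86, 0.41 and 0.92 in the same order, and the counts called higher were 2, 9, 1 and 3. Fcnb was at 0 in all groups except WT_VILI. For S100a8 and S100a9, which encode the calprotectin subunits, the authors' deposited tables gave log2 fold changes of 0.17 and -0.07 for KO_noVILI, 2.30 and 1.86 for WT_VILI, 0.49 and 0.41 for KO_VILIlow, and 0.90 and 0.75 for KO_VILIhigh. Ngp, a granule protein of immature neutrophils, had 2.93, 4.14, 0.84 and 1.67 in the same tables. The part of neutrophil number in the Cxcr2 difference was not tested.

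**Figure D3:**
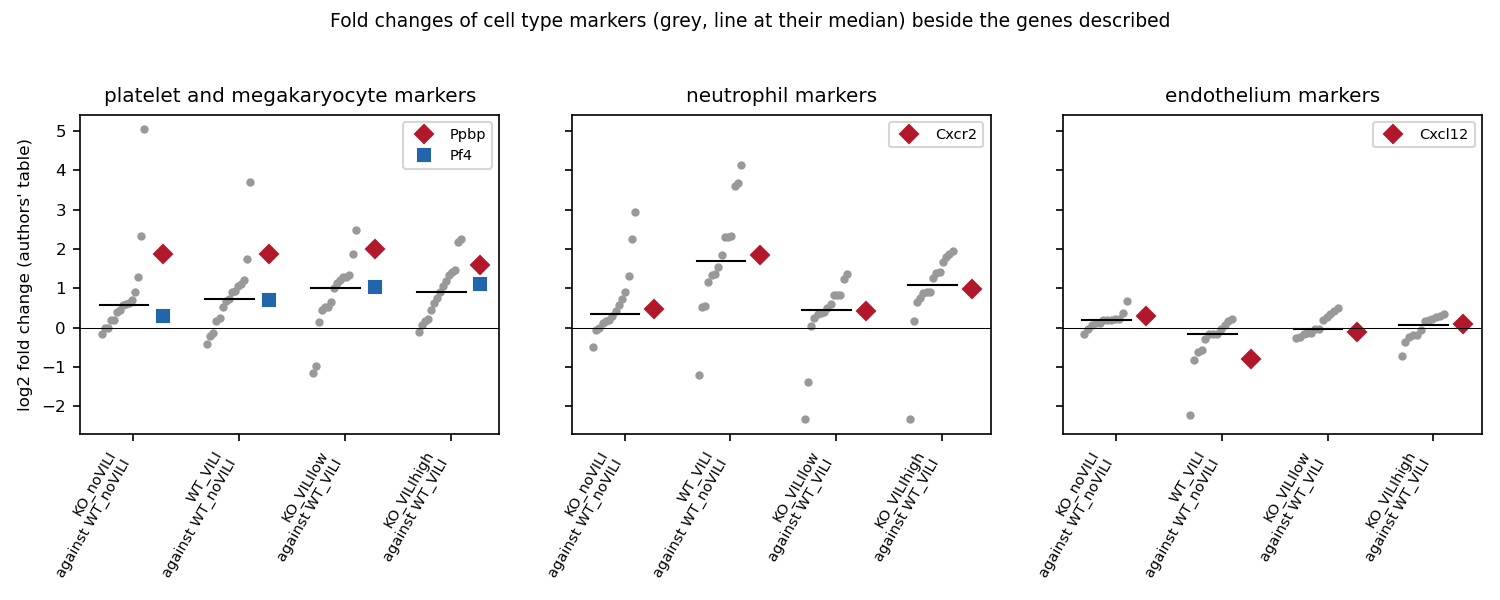
Log2 fold changes (vertical axis) of cell type markers (grey points, with a line at their median) beside Ppbp and Pf4, Cxcr2 or Cxcl12 (coloured symbols), by comparison, from the authors' deposited tables. The neutrophil medians of 0.35, 1.70, 0.45 and 1.09 lie near Cxcr2. The platelet medians of 0.58, 0.73, 1.00 and 0.91 lie below Ppbp, with single markers above Ppbp in each comparison.

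Cxcr4, the receptor of Cxcl12 on leukocytes and endothelium, fell in WT_VILI to a group total of 690 (54.0 CPM), against 1206 in WT_noVILI (94.5 CPM). Its log2 fold change of -0.81 in the authors' deposited table (adjusted p = 1.52e-05, edgeR) had the same size as that of Cxcl12. KO_noVILI had 87.7 CPM against 92.4 CPM in WT_noVILI, KO_VILIlow 49.6 CPM against 52.2 CPM in WT_VILI, and KO_VILIhigh 71.1 CPM against 52.0 CPM in WT_VILI. The log2 fold changes in the authors' deposited tables were -0.08, -0.07 and 0.45 in that order and were not called (adjusted p = 1.00, 1.00 and 0.518, edgeR).

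Levels of different genes were compared as CPM per kilobase of exon, a scale with no replicate spread. Cxcl15 was first in all 5 groups, at 668 in KO_VILIhigh, 466 in KO_VILIlow, 543 in WT_VILI, 444 in KO_noVILI and 403 in WT_noVILI. In WT_noVILI it was followed by Cxcl12 at 52.1, Cxcr4 at 51.7, Pf4 at 5.03, Cxcr2 at 3.58, Ppbp at 1.09 and Cxcl1 at 0.814 CPM per kilobase. Cxcl5 at 0.111, Cxcl2 at 0.10 and Cxcl3 at 0.0591 CPM per kilobase closed that order, each with a group total of 3. In KO_VILIhigh, Cxcl1 was second at 43.3 CPM per kilobase, before Cxcr4 at 39.3, Cxcl12 at 32.3, Cxcl2 at 29.8 and Cxcr2 at 24.2. Pf4 at 15.6, Ppbp at 10.9, Cxcl3 at 2.07 and Cxcl5 at 1.19 CPM per kilobase followed. Cxcl1 was seventh in KO_VILIlow and sixth in WT_VILI, at 13.3 and 7.30 CPM per kilobase. In KO_VILIlow, Pf4 at 14.4, Ppbp at 13.6 and Cxcl1 at 13.3 CPM per kilobase were neighbours within the width of their counting intervals.

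Contrasts that no single table holds were built as sums and differences of the deposited fold changes on the log2 scale, each with an approximate normal test, from tables normalised separately. In KO_VILIhigh against KO_VILIlow, 1 of the 8 members above the minimum abundance was called higher, against 0.150 percent of the 12696 genes tested, and 0 were called lower, against 0.0158 percent. That gene was Cxcl1, with a log2 difference of 1.69 (approximate SE 0.406, interval 0.895 to 2.49, adjusted p = 0.0232 in the approximate test over the authors' edgeR tables). Cxcl2 had a log2 difference of 1.49 (0.533 to 2.45, adjusted p = 0.479 in the same approximate test of the edgeR tables). Cxcl3 had 2.18 (0.358 to 3.99) and was under the minimum abundance. For Ppbp the log2 difference was -0.38 (-1.32 to 0.549), for Cxcr2 0.56 (-0.573 to 1.69), for Cxcr4 0.52 (-0.0595 to 1.10) and for Cxcl12 0.20 (-0.337 to 0.728), so either sign lies within these intervals. Cxcl15 had 0.53 (0.0124 to 1.06), Pf4 0.07 (-0.932 to 1.07) and Cxcl5 -0.28 (-2.34 to 1.78).

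Ventilation in the knockout was read the same way. In KO_VILIhigh against KO_noVILI, Cxcl1 (4.19, 2.85 to 5.53) and Cxcr2 (2.35, 1.16 to 3.55) were called higher, against 2.45 percent of genes, and Cxcl12 (-1.01, -1.58 to -0.441) was called lower, against 1.42 percent. In KO_VILIlow against KO_noVILI, Cxcl1 (2.50, 1.21 to 3.79) was called higher, against 2.22 percent of genes, and Cxcl12 (-1.20, -1.75 to -0.660) was called lower, against 1.31 percent. In each, 7 members were above the minimum abundance, and 6 had an unadjusted p under 0.05 in the approximate test. The share of all genes at that unadjusted threshold was not computed, and the shares above are for the adjusted one. Among those not called, Ppbp had 1.61 (0.245 to 2.98) in KO_VILIhigh and 1.99 (0.676 to 3.31) in KO_VILIlow. Pf4 had 1.49 (0.270 to 2.71) in KO_VILIhigh and 1.42 (0.223 to 2.62) in KO_VILIlow. Cxcl15 had 0.57 (0.0232 to 1.11) in KO_VILIhigh, and Cxcr4 had -0.80 (-1.39 to -0.211) in KO_VILIlow. With quantiles of t with 4 degrees of freedom in place of normal ones, Cxcl12 was not called in either contrast, nor Cxcr2 in KO_VILIhigh against KO_noVILI. The number of members called still stayed within 1.5 times the reported count in both contrasts, so other members gained the call there. Cxcr2 at 1.80 (0.666 to 2.93) missed the threshold in KO_VILIlow with normal quantiles (adjusted p = 0.0517 in the approximate test of the edgeR tables). Cxcl2 was under the minimum abundance in unventilated lungs, with log2 differences of 5.45 (3.44 to 7.46) in KO_VILIhigh and 3.96 (1.91 to 6.01) in KO_VILIlow against KO_noVILI. With no minimum set, Cxcl2 was called higher in both (adjusted p = 1.11e-05 and 0.00751 in the approximate test of the edgeR tables). These rest on group totals of 20 in KO_noVILI and 3 in WT_noVILI.

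Whether the knockout difference itself changed with ventilation was tested as the difference of 2 log2 fold changes that share no group. The ventilated and the unventilated pair also differed in sex markers, so a change with ventilation and one with sex cannot be told apart here. None of the 7 members tested was called for KO_VILIlow, where 1.17 percent of genes were, or for KO_VILIhigh, where 1.57 percent were, and 0 had an unadjusted p under 0.05 in this approximate test of the edgeR tables. For Cxcl1 the change was -0.71 (-1.75 to 0.333) with KO_VILIlow and 0.98 (-0.123 to 2.09) with KO_VILIhigh. For Ppbp it was 0.11 (-0.873 to 1.10) with KO_VILIlow and -0.27 (-1.32 to 0.776) with KO_VILIhigh. Cxcr4 came nearest with KO_VILIhigh, at 0.53 (-0.000454 to 1.05).

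**Figure D4:**
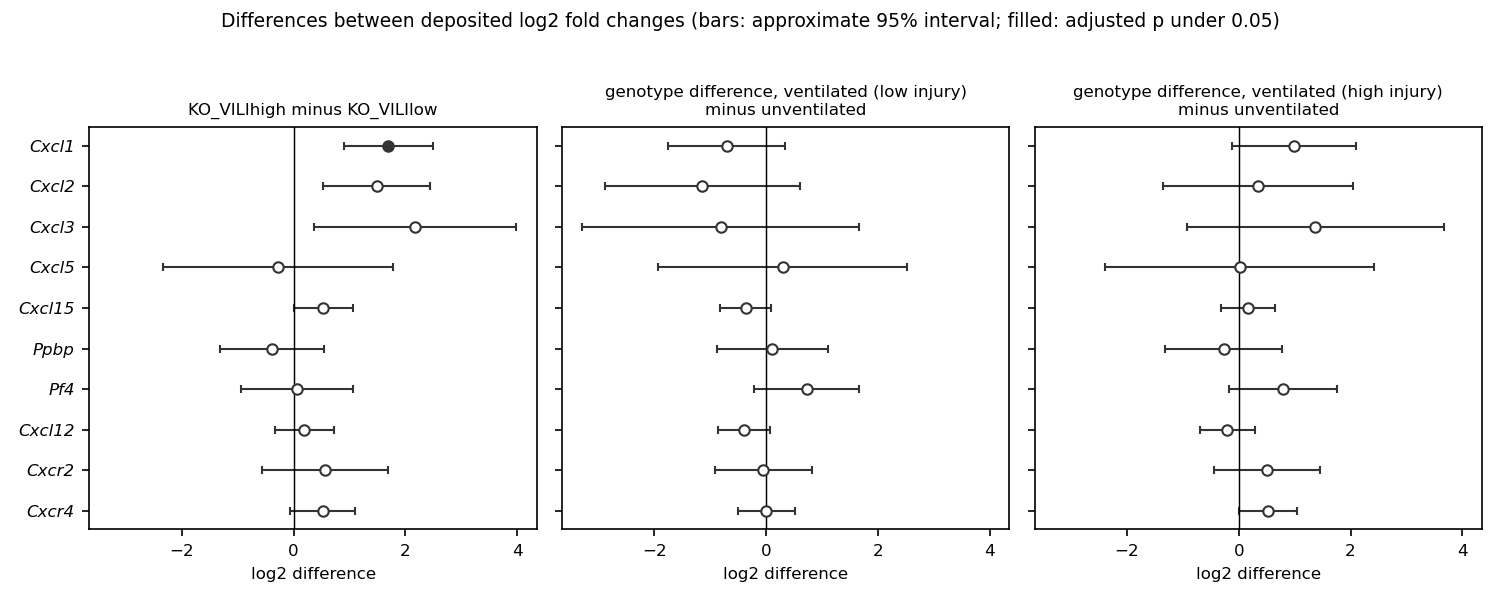
Log2 differences (horizontal axis) of the 10 genes (rows) in 3 derived contrasts (panels), with approximate 95 percent intervals as bars, filled for genes called and open for the others, those under the minimum abundance included. Cxcl1 lies right of 0 at 1.69 in KO_VILIhigh against KO_VILIlow, and every interval of the 2 genotype differences crosses 0.

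The rest of the pathway was read in 7 lists. Of 7 other CXC ligands, 1 was called, Cxcl13, the attractant of B cells, with group totals of 66 in KO_VILIhigh against 17 in WT_VILI and a log2 fold change of 1.94 in the authors' deposited table (adjusted p = 0.00480, edgeR). In the other comparisons 0 of these ligands were called by the authors' edgeR test, with 3 at an unadjusted p under 0.05 in KO_noVILI, 4 in WT_VILI and 1 in KO_VILIlow. Of 8 other CXC and atypical receptors, 1 was lower in KO_noVILI, 3 in WT_VILI, 1 in KO_VILIlow and 0 in KO_VILIhigh, and 0 were higher. The B cell receptor Cxcr5 was lower in the first 3, with log2 fold changes of -1.55, -0.65 and -2.07 in the authors' deposited tables. Cxcr1, a receptor close to Cxcr2, had group totals of 18 in WT_VILI against 50 in WT_noVILI, a log2 fold change of -1.46 in the authors' deposited table (adjusted p = 0.0424, edgeR), so it fell where Cxcr2 rose. Ackr4, a scavenging receptor, had -1.20 in the same table.

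Of 21 genes of receptor signalling and desensitisation, 2 were higher and 4 lower in WT_VILI against WT_noVILI. Rgs1 and Rgs16, which shorten G protein signals, had log2 fold changes of 2.83 and 1.48 in the authors' deposited table. In KO_noVILI 1 was lower, Rgs2 (-1.13), and in KO_VILIhigh 1 was higher, Rgs16 (1.27). Of 19 genes of neutrophil production and other attractants, 6 were higher and 1 lower in WT_VILI, led by the cytokines Il6 (4.65) and Tnf (3.27) and the receptor Csf3r (1.59). In KO_VILIhigh against WT_VILI 5 were higher and 0 lower, led by Tnf (2.01), Il1b (1.73) and Csf1 (1.54). In KO_VILIlow and in KO_noVILI 0 of these 19 were called by the authors' edgeR test, with 4 and 2 at an unadjusted p under 0.05.

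Of 16 adhesion genes of neutrophil traffic, 1 was called, P-selectin Selp, with group totals of 203 in KO_VILIhigh against 38 in WT_VILI and a log2 fold change of 2.41 in the authors' deposited table (adjusted p = 0.00718, edgeR). In the other comparisons 0 were called by the authors' edgeR test, with 4 at an unadjusted p under 0.05 in KO_noVILI, 2 in WT_VILI and 2 in KO_VILIlow. Of 13 proteoglycans and proteases that act on chemokines, 4 were higher in WT_VILI, led by the neutrophil collagenase Mmp8 (3.59, also in the neutrophil list), Mmp2 (0.54) and the syndecan Sdc4 (0.51). One was higher in KO_VILIhigh, Sdc4 (0.97), and 1 in KO_noVILI, Mmp2 (0.51). Of 16 genes of NF-kB feedback, many of which NF-kB itself induces, 9 were higher in WT_VILI, led by Tnfaip3 (1.30), Zfp36 (1.21) and Birc3 (0.77), and 6 in KO_VILIhigh against WT_VILI, led by Zfp36 (1.78), Ier3 (1.37) and Nfkbiz (1.48). In KO_VILIlow 0 were called by the authors' edgeR test, with 2 at an unadjusted p under 0.05, and in KO_noVILI 1 was lower, Zfp36 (-0.77). Median log2 fold changes of this list were 0.03 in KO_noVILI, 0.59 in WT_VILI, 0.20 in KO_VILIlow and 0.72 in KO_VILIhigh, against 0 for all genes in each of the authors' deposited tables.

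The genes nearest to 5 members over the 4 deposited log2 fold changes were found by Euclidean distance among 13298 genes. For Cxcl1 they were Has1, a hyaluronan synthase (distance 1.14), Sfn, a 14-3-3 protein (1.40), and Adm, the vasodilator adrenomedullin (1.64). For Cxcl2 they were Ngp (1.79), Sfn (2.33) and Areg, a ligand of the epidermal growth factor receptor (2.69). These distances were larger than those of the other 4 members searched, and Cxcl2 also had the largest of the deposited fold changes among the 5, with which such distances grow. For Ppbp they were Olfr1033 (0.763) and the platelet genes Gp5 (1.29) and Tubb1 (1.45). For Cxcl12 they were Ppp1r16b (0.114), Dtx3l (0.133) and Gm8979 (0.139), and for Cxcr2 they were Myc (0.358), Kcnk1 (0.365) and Slfn4 (0.377).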

How the data were processed

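Whole-lung RNA of 5 groups of mice was sequenced after TRIzol extraction and TruSeq library preparation, per the labels' protocols. Reads were aligned with Bowtie 1.1.2 to mm9 and tested with edgeR in R 3.0.1, per the submitters' processing notes; the counting method, strand setting and gene filter are not given in the sources used here. The deposited tables hold a log2 fold change, a log2 of mean CPM, a p-value and an adjusted p from the authors' edgeR test for 21590 genes each. No values per library were used.

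Group totals were recovered from the deposited log2 fold change and mean log2 CPM, with prior counts of 0.125 and 2 read from the values. The sorted totals of the 2 groups of a table were nearly equal, with a median absolute log2 difference of 0.00445 to 0.00727 against 0.127 to 0.198 for the same genes. Folds of exactly 0 stood at 47 to 88 genes whose mean log2 CPM reached 3, including Sftpc. A procedure that forces equal distributions gives this form; the headers name none. The totals are thus normalised counts, and a change shared by most genes would not appear in them. The ventilated knockout tables were read against WT_VILI, since their second group lay a median of 0.0852 and 0.0823 log2 from WT_VILI and 0.226 and 0.224 from WT_noVILI.

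Genes were called at an adjusted p of 0.05. Nothing in the labels says that the 2 libraries of a group came from separate animals, so p-values measure the spread between them, which may be technical. Derived contrasts took each standard error from the deposited fold and p, with normal quantiles and Benjamini-Hochberg adjustment over genes whose mean log2 CPM reached 1 in each table used. They count the spread of a cancelling group and were tested on simulated data, where 59.0 percent of 200 changed genes were called for KO_VILIhigh against KO_VILIlow (13549 genes), 29.0 percent for KO_VILIhigh against KO_noVILI (13382 genes) and 56.5 percent for the genotype difference with KO_VILIhigh (13403 genes). Of the calls, 0 percent were false in the first 2 and 5.83 percent in the third. The simulated levels had normal noise of known spread, changed genes were shifted by 2 log2 units, and p came from that same spread. The standard error was thus recovered by construction, so these shares do not show how the test fares on edgeR p-values from 2 libraries. Intervals for totals and ratios are 95 percent counting intervals from exact formulas, computed on normalised totals as if they were read counts. Those for log2 differences are normal ones.

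Named genes were all members, Cldn4, up to 3 called genes of each of 7 pathway lists with the smallest p per comparison, the first 3 genes of marker lists and the 3 nearest patterns of 5 members; 1 gene that this rule names is not reported here. Sex markers, and the markers given as at 0 or called lower, were named after their values were seen. The members and lists were chosen with earlier results of these data known. Entrez identifiers matched a RefSeq gene table for 21534 genes. Promoters came from RefSeq on GRCm38.p6 while the authors aligned to mm9, and exon lengths from GENCODE M21. Calculations ran in Python 3.11.15 with scipy 1.17.1, pandas 2.3.3 and numpy 2.4.6, and matplotlib 3.10.9 drew the figures.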

Additional observations from a re-analysis of the deposited data

How the results depend on the processing

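Of 44 recomputed counts of called members, 37 stayed within 1.5 times the reported count. This compares how many members were called and not which ones. In the deposited comparisons, centring on the median and dropping the prior count reuse the deposited adjusted p. Their counts could hardly change, and they are included in the 44 and in the single-gene results below. At an adjusted p of 0.01 the count was 1 for KO_noVILI against WT_noVILI (Ppbp), 2 for KO_VILIlow against WT_VILI and 0 for KO_VILIhigh against KO_VILIlow. With Bonferroni adjustment it was 1 for KO_noVILI against WT_noVILI and 1 for KO_VILIlow against WT_VILI. With a log2 fold change of at least 1 required, it was 4 for WT_VILI against WT_noVILI. With quantiles of t with 4 degrees of freedom, it was 2 for KO_VILIhigh against KO_VILIlow, Cxcl1 and Cxcl2. Of 390 single-gene results, 362 stayed called or not called as before, 22 lost the call and 6 gained it. A change of direction was counted only where a gene was called, and 0 were found. Only centring on the median and dropping the prior count alter the fold, so under the other settings direction could not change. Cxcl2 in KO_noVILI and Cxcl5 in KO_VILIlow had no test when genes whose mean log2 CPM is below 1 were left out. Reading abundance as a mean of logs moved 25 of 80 levels beyond their counting interval. The log2 ratio of totals with no prior count was added after seeing the data. Its direction is fixed by the deposited fold and its calls by the deposited adjusted p, so it tests neither. No paired analysis was possible because the tables hold no values per library, and no library could be left out for the same reason. Depth limits Cxcl2, Cxcl3 and Cxcl5 in unventilated wild type lungs, each at a group total of 3.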

Other observations

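Marker lists of other cell types moved as follows, as values with no account of why, in the order KO_noVILI against WT_noVILI, WT_VILI against WT_noVILI, KO_VILIlow against WT_VILI and KO_VILIhigh against WT_VILI. Of 11 cardiac muscle markers 8 were called lower in the first, 0 were called in the second, and 9 and 2 were called higher in the third and the fourth in the authors' deposited tables. Their median log2 fold changes were -1.35, -0.62, 1.41 and 0.82. For the 5 red blood cell markers measured the medians were 0.84, -1.92, 1.89 and 1.77, with 3 called lower in the second and 3 higher in the fourth. Of 12 markers of T, B and NK cells, 4 were called lower and 1 higher in the first, 1 lower in the second, 4 lower in the third and 0 in the fourth, with medians of -0.05, -0.29, -0.73 and 0.34. Of 9 club and ciliated cell markers, 4, 3, 1 and 0 were called lower. Alveolar macrophage medians were 0.10, -0.17, 0.29 and 0.28 over 11 genes, with 2, 0, 1 and 2 called higher and 1, 1, 0 and 0 lower. Monocyte medians were -0.30, -0.29, -0.18 and 0.32 over 7 genes, with 1 called higher in each and 3 lower in the second. For 10 alveolar type 2 markers the medians were 0.24, 0.21, -0.05 and -0.17, with 1 called higher in the second and 1 lower in the fourth. The part of these cell types in the results on the chemokines was not tested.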
